A study of Mus musculus with 9 samples.

Results

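The 2 populations compared are outer root sheath cells (ORS, 2 libraries) and hair follicle stem cells (HFSC, 3 libraries), 5 of the 9 RNA sequencing libraries of a study that sorted 4 cell populations from mouse skin. Both populations came from back skin at postnatal day 30, with hair follicles in anagen VI, the late stage of hair growth. The strain label of every sample is an Lhx2-GFP line on a CD1 background, the extraction text names K14-H2BGFP mice, and the sex label is Mixed. As sort markers the labels give P-cadherin, Sca-1, CD34, GFP and the integrins α6 and b1, without the gates. They do not say whether replicates came from separate animals, so p-values measure the spread between these samples, which may be technical. All were TruSeq mRNA libraries read as pairs, and the other 4 libraries of the study, 2 of basal and 2 of suprabasal hair bulb cells, serve here only to estimate the spread and as a comparison.

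The bulge is the upper part of the follicle in which hair follicle stem cells rest between growth phases, held to a basement membrane beneath them by integrins and hemidesmosomes. The outer root sheath is the layer of epithelium that runs from the bulge down to the hair bulb during growth and supplies cells that divide. Bulge cells are known for slow cycling, for a niche rich in matrix and surface receptors, and for contacts with nerve endings and with the muscle that raises the hair. What is described here is everything outside bulge markers, cell cycle and WNT genes: adhesion, antigen presentation, lysosomes, metabolism, biosynthesis, chromatin and the other signalling pathways.

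Of 20491 genes tested, 19543 were kept for description. The other 948 were set aside: 195 were at 0 in all 3 HFSC libraries, 697 were X- or Y-linked and 79 were ribosomal pseudogenes, with some in more than 1 of these classes. The HFSC libraries held 25098237 to 29902799 counts and the ORS libraries 64569201 and 88596741. The labels give no preparation batch, and no sex beyond Mixed, so a difference between populations cannot be told apart from one in preparation or in the mix of sexes. Across genes, which are not independent replicates, log2 CPM correlated at 0.973 to 0.977 among HFSC libraries, at 0.982 between the ORS libraries and at 0.930 to 0.935 between the populations. The ORS libraries differed in likeness to the hair bulb. Replicate 1 correlated with those libraries at 0.950 to 0.958 and replicate 2 at 0.927 to 0.942. Levels are CPM, counts scaled to a common library size, positions are those of GENCODE M21 on mm10, and a gene was called at an adjusted p under 0.05 in edgeR's quasi-likelihood F-test with Benjamini-Hochberg adjustment over all genes tested. SE is the absolute log2 fold change divided by the square root of that test's F statistic. It restates the test and is no separate estimate of error.

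Of the genes kept, 3488 were called higher in ORS (17.8%) and 4677 lower (23.9%), with a median log2 fold change of -0.06. On the authors' TPM the same genes gave 5715 higher (29.2%) and 2630 lower (13.5%), so 68.5% of calls were higher instead of 42.7%. Their median was then 0.13 on the log2(TPM + 1) scale and 0.22 with a pseudocount of 0.1, a shift of all genes that has to be taken off any group median read on that scale. Of the genes called higher, 66.7% were also higher in every one of the 4 hair bulb libraries than in every HFSC library, and of those called lower 69.9% were lower in all of them. Both comparisons use the same HFSC libraries. A difference in HFSC cells and one in HFSC preparation would each put ORS and hair bulb on the same side. These hair bulb shares therefore cannot tell cells from preparation. The shares called on each scale and these hair bulb shares are the background for the same counts given below for single groups. The share of all genes whose libraries do not overlap between the populations was not counted. Most genes named below were picked for a call and a large change, so their lack of overlap is no separate evidence.

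The libraries of the given markers did not overlap between the populations. Cd34 was used in the sort and all were given as markers of these populations, so this is no independent test of their identity. Sox9, a transcription factor, stood at 152, 129 and 129.8 CPM in the HFSC libraries and at 17.5 and 15.7 CPM in the ORS libraries. Cd34, a surface protein that the sort used, was at 412, 381 and 344 against 65.7 and 80.7 CPM. Neither gene's libraries overlapped, and both were lower in ORS. Lgr6, a receptor for R-spondins, was at 38.2, 36.9 and 46 against 128 and 209.7 CPM, and Mycl, a member of the MYC family, at 112, 134 and 161 against 555 and 745 CPM, both higher in each ORS library than in any HFSC library. A bulk library gives the product of cell number and RNA per cell, so fewer cells of a type and less RNA per cell cannot be told apart in any group below.

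**Figure D1:**
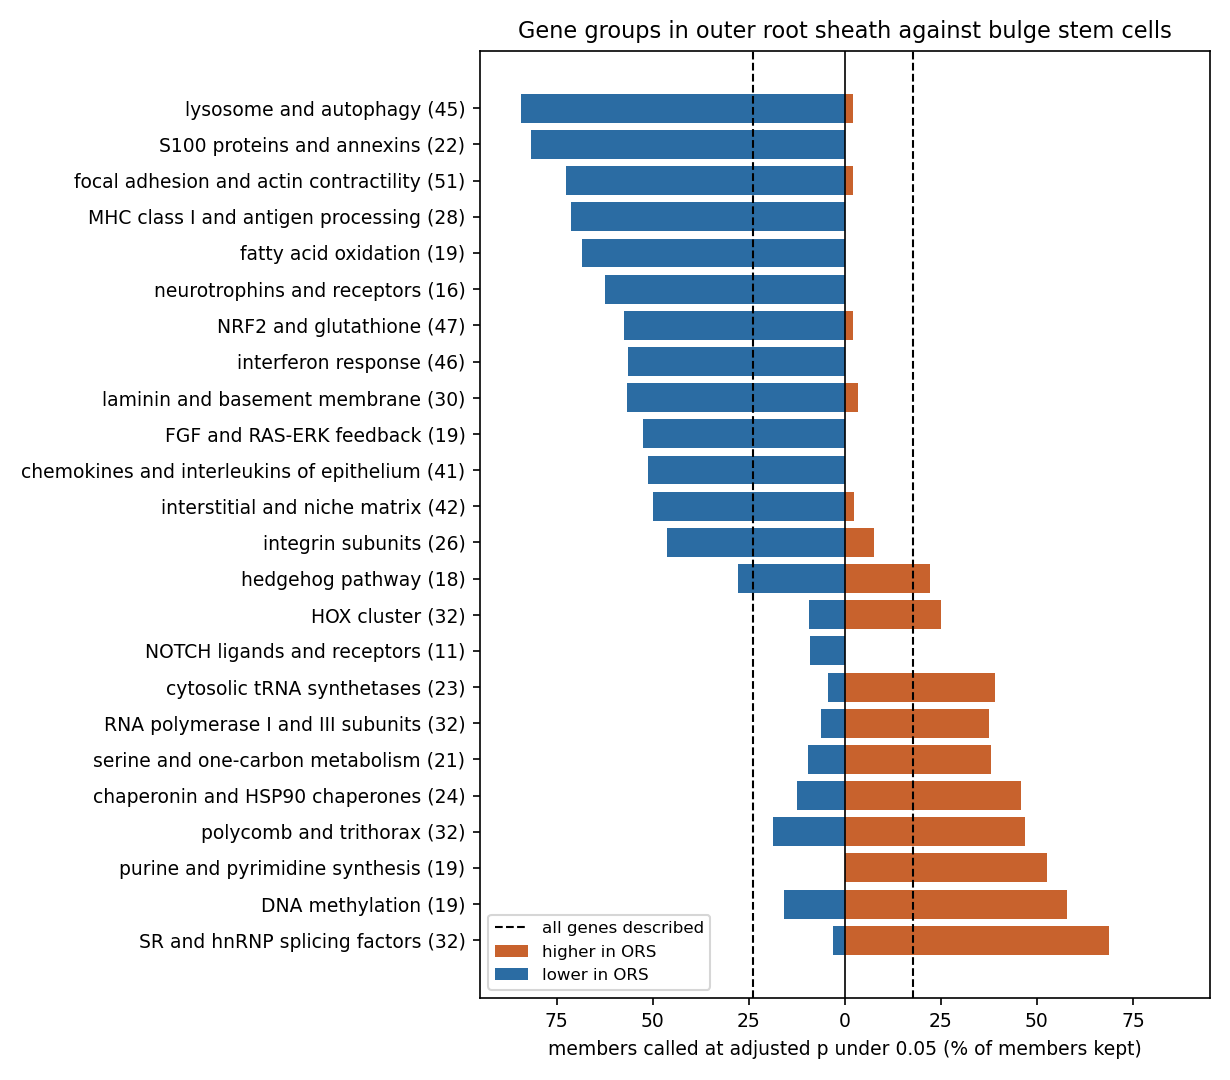
Share of each group's members called higher (right, orange) or lower (left, blue) in ORS than in HFSC, in percent of the members kept, whose number is in brackets. Dashed lines mark the shares over all genes described, 17.8% higher and 23.9% lower. The lysosome group reached 84.4% lower and the splicing factor group 68.8% higher.

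The contractile and adhesive machinery of the cell surface was lower in ORS. Of 51 genes of focal adhesions and actin contractility, 37 were called lower and 1 higher, with a median log2 fold change of -0.86, against 23.9% lower and -0.06 over all genes. Acta2, smooth muscle actin, stood at 1356, 840.3 and 1148 CPM in HFSC and 240 and 210.1 CPM in ORS, 4.95-fold lower (chr19:34241090-34255590, log2 fold change -2.31, SE 0.26, adjusted p = 2.63e-04). Rhoc, a small GTPase that drives actomyosin contraction, was at 74.6, 69.2 and 67 against 18.8 and 19 CPM (3.71-fold lower, adjusted p = 1.63e-05). For both genes every ORS library lay below every HFSC library, with the HFSC libraries spread more widely for Acta2. Tagln, an actin-bundling protein, was 3.66-fold lower and Mylk, the kinase that switches on myosin light chains, 3.78-fold lower. Myh10, a non-muscle myosin heavy chain, was the member called higher, at 76.6, 66.1 and 82.2 against 89.2 and 117 CPM. In the hair bulb libraries 33 of the 37 lower genes (89.2%) were likewise below every HFSC library. Mylk was 6.32-fold lower without ORS replicate 1. Myh10 was not called without ORS replicate 2 (adjusted p = 0.167).

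A smooth muscle and pericyte list of 10 markers summed to 2634 to 3603 CPM in HFSC and 1046 and 1036 CPM in ORS, and 3 of its members were called, all lower: Acta2, Tagln and Smtn, a protein of contractile filaments. Acta2, Tagln and Cnn1 are also members of the contractile group. The smooth muscle myosin Myh11 was at 14.5, 12.2 and 18.8 CPM in HFSC and 23 and 6.29 CPM in ORS and the muscle filament gene Des at 2.54, 2.57 and 4.87 and 4.43 and 1.64 CPM, with overlapping populations and no call. Without ORS replicate 1 the log2 fold changes of Myh11 and Des were -1.28 and -1.02. Without ORS replicate 2 they were 0.59 and 0.41, so the direction depends on the ORS library. None of the 10 markers was under 1 CPM in all 5 libraries. The part of muscle cells in the lower contractile genes was not tested. Smtn was not called on log2(TPM + 1) (adjusted p = 0.0518).

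Serum response factor binds a DNA element called the CArG box, which drives many genes of this group. The letters of that element, searched on both strands in the 250 bases before the start of each gene, were found for 5 of the 41 members with a RefSeq promoter (12.2%) and for 1.62% of 27025 genes with one. All 5 were called lower, and of the 41 members 31 were called. The windows of Myl9, a myosin light chain, and Vcl, the focal adhesion protein vinculin, are shown as examples of members that move together, 5′ to 3′ from RefSeq on GRCm38.p6, with the matching letters in capitals. Both genes were chosen for these letters after their values were seen. The Myl9 window is chr2:156775214-156775463, + strand, and that of Vcl chr14:20929148-20929397, + strand.

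Myl9: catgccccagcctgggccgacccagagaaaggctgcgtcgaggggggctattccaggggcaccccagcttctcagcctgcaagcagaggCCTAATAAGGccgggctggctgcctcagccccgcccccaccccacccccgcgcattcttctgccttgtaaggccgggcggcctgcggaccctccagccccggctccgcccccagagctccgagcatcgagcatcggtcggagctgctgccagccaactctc

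Vcl: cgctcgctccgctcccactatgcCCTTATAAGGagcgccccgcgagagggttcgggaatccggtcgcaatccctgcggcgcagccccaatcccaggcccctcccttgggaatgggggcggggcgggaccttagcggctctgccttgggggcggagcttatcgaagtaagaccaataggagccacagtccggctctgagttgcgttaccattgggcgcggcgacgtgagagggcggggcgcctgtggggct

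The match starts 161 bases before the gene's start in Myl9 and 227 bases before it in Vcl. Myl9 was at 369, 324 and 340.5 CPM in HFSC and 104 and 90.2 CPM in ORS (3.55-fold lower) and Vcl at 289.6, 246 and 279 against 127 and 136 CPM (2.06-fold lower). A match of letters describes the window only.

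Matrix and its receptors moved the same way. Among 26 integrin subunits, the receptors that hold cells to matrix, 12 were lower and 2 higher. These include Itga6 and Itgb1, which encode sort markers. Itgb8, which forms the receptor that frees TGF-beta from its latent complex, was at 41, 41.9 and 36.5 CPM in HFSC and 14.1 and 10.4 CPM in ORS (3.26-fold lower, chr12:119158022-119238802, log2 fold change -1.7, SE 0.18, adjusted p = 1.70e-04). Itga7 and Itga5, partners of integrin β1 for laminin and fibronectin, were 3.02-fold and 2.69-fold lower, and no library of either population crossed into the other. Itga4 was higher, at 3.66, 4.08 and 4.03 against 8.87 and 5.34 CPM. Of 30 laminin and basement membrane genes, 17 were lower and 1 higher (median -0.9). Col17a1, the transmembrane collagen of hemidesmosomes, was at 1539.8, 1299.7 and 1279 against 236 and 361 CPM (4.6-fold lower, adjusted p = 1.08e-04). Lamb3, a chain of the laminin that anchors epithelium, was 3.16-fold lower, while Fbln1, which encodes fibulin-1, was 2.44-fold higher. Laminin and basement membrane members called lower numbered 11 without HFSC replicate 3 and 18 without suprabasal hair bulb replicate 1. Laminin and basement membrane members had 1 higher and 7 lower on log2(TPM + 1).

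Interstitial and niche matrix genes were lower for 21 of 42 members and higher for 1 (median -1.06). Mfap2 and Mfap5, proteins of microfibrils, were 6.78-fold and 4.6-fold lower, and Ltbp2, a latent TGF-beta binding protein, was at 40.5, 49.1 and 29.7 against 4.81 and 10.7 CPM. Dcn, the small proteoglycan decorin, went the other way, from 156, 179 and 198 to 474 and 243 CPM, with the ORS libraries 2.02-fold higher. Of 42 metalloproteases and inhibitors, 18 were lower and 3 higher. Mmp2, a gelatinase, fell from 45.6, 38.1 and 49.7 to 6.97 and 5.05 CPM (7.42-fold lower, adjusted p = 5.78e-05). Adamts9, a secreted protease of proteoglycans, was in contrast at 10.5, 12.5 and 13.6 against 58.4 and 79.1 CPM, 5.65-fold higher. Interstitial and niche matrix members had 1 higher and 13 lower on log2(TPM + 1). Mfap5 was 7.78-fold lower without ORS replicate 1. Ltbp2 was 8.22-fold lower without ORS replicate 2. Dcn was not called without ORS replicate 1 (adjusted p = 0.116).

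Markers of dermal fibroblasts were lower as well, but 7 of that list's 12 genes (Col1a1, Col1a2, Col3a1, Dcn, Fbn1, Lum and Mfap5) are also in the interstitial matrix group, so the counts are not independent. The list summed to 1777 to 3077 CPM in HFSC and to 1629 and 966 CPM in ORS, with 8 members called lower and 1, Dcn, higher, and none under 1 CPM in all 5 libraries. Col3a1, a fibrillar collagen of dermis, was at 880.1, 686 and 1192 against 388 and 233 CPM and Pdgfra, a receptor that marks fibroblasts, at 16.4, 9.92 and 17.2 against 5.55 and 2.95 CPM. ORS replicate 1 was the higher of the ORS libraries for both. Fibroblast RNA as a part of the matrix result was not tested. Col3a1 was not called without ORS replicate 2 (adjusted p = 0.0684). Lum was 7.52-fold lower without ORS replicate 1.

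**Figure D2:**
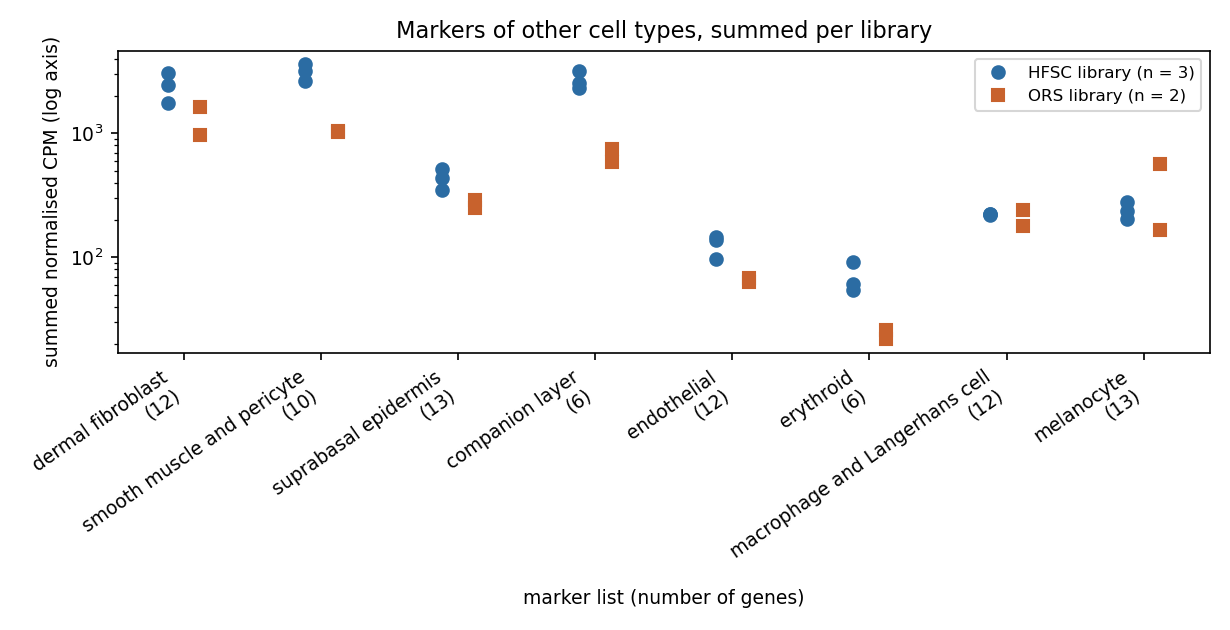
Summed normalised CPM of marker genes of other cell types (log axis), with 1 point per library, circles for HFSC and squares for ORS. Sums of the dermal fibroblast, smooth muscle, suprabasal epidermis, companion layer, endothelial and erythroid lists were lower in both ORS libraries, and those of the macrophage and melanocyte lists overlapped.

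Genes by which cells show peptides to T cells were lower in ORS, with no member called higher. Of 28 genes of MHC class I and antigen processing, 20 were lower (median -0.84). B2m, the light chain shared by all class I molecules, was at 158, 155 and 158 CPM in HFSC and 68.3 and 57 CPM in ORS (2.51-fold lower, chr2:122147686-122153083, log2 fold change -1.33, SE 0.11, adjusted p = 7.90e-05). Tap1 and Tap2, which together form the peptide transporter, were at 68.4, 64.9 and 64 against 22.5 and 23.4 CPM and at 59.4, 48.5 and 54.9 against 16.6 and 21.6 CPM. The 3 HFSC libraries lay close together for these genes, and the ORS libraries were all below them. H2-T23, a non-classical class I chain, was 3.6-fold lower, and H2-Q6 3.11-fold lower, but 31.2% and 58.6% of the 25-base words of their transcripts also occur in other genes, so these values are uncertain. Psmb8, an immunoproteasome subunit, and Psme1 and Psme2, which form its activator, were among the proteasome genes with the largest falls, at 2.21-fold, 2.03-fold and 1.87-fold (69.4% of the words of Psme2 are shared), while 38 of 47 proteasome genes were not called. Psmb8, Psme1 and Psme2 are among 5 members that the proteasome and class I groups share, so the counts are not independent. In the hair bulb, 18 of the 20 lower class I genes (90%) were below every HFSC library as well. Proteasome genes called lower numbered 4 without HFSC replicate 2 and 7 without HFSC replicate 1. MHC class I and antigen processing members had 1 higher and 13 lower on log2(TPM + 1). Proteasome genes had 21 higher and 3 lower on log2(TPM + 1). Psmb8 was not called on log2(TPM + 1) (adjusted p = 0.0809).

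Interferon response genes were lower for 26 of 46 members and higher for 0 (median -0.73). The sensors of viral RNA Ifih1 and Ddx58 were at 12, 12.7 and 12.4 against 3.01 and 2.02 CPM (4.92-fold lower) and 24.4, 27 and 25.8 against 8.46 and 6.58 CPM (3.43-fold lower). Irf7, a transcription factor that amplifies the response, fell from 35.7, 39 and 38.3 to 13.1 and 12.5 CPM (chr7:141262706-141266481, log2 fold change -1.56, SE 0.14, adjusted p = 9.87e-05). Usp18, which damps the interferon receptor, was 4.57-fold lower. All 4 genes gave populations that did not overlap, at levels of at most 39 CPM.

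Interferon-activated factors bind the interferon-stimulated response element (ISRE), searched here as TTTCNNTTTC, in which N is any base, on both strands. It was found before 13 of 35 interferon response genes with a promoter (37.1%), before 3 of 22 genes of the class I group (13.6%) and before 3.46% of all genes. Of the members that hold it, 5 of the 13 and all 3 were called lower. Among all members with a promoter, 21 of 35 and 16 of 22 were called. The windows shown belong to genes lower in ORS: B2m (chr2:122147437-122147686, +), H2-T23 (chr17:36032702-36032951, -) and Stat2 (chr10:128270248-128270497, +), a factor that itself binds the element. Stat2 was not called without HFSC replicate 1 or ORS replicate 1 (adjusted p = 0.0564 to 0.0776) and was not called on log2(TPM + 1) (adjusted p = 0.675).

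B2m: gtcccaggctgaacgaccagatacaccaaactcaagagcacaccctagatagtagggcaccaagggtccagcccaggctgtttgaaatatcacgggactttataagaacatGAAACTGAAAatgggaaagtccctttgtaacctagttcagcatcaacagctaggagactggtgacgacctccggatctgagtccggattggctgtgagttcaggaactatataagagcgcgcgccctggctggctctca

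H2-T23: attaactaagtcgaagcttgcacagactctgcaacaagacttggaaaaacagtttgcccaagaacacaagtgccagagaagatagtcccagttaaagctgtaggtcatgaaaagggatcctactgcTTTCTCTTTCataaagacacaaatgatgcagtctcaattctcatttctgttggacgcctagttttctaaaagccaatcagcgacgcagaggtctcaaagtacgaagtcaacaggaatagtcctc

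Stat2: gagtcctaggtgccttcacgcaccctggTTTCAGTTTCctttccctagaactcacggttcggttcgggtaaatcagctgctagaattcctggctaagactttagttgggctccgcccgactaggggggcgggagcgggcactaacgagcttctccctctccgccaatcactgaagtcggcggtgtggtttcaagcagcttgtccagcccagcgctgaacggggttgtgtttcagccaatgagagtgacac

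Capitals mark the element. Stat2 was at 28, 24.8 and 25.1 CPM in HFSC and 18.7 and 19.3 CPM in ORS (1.37-fold lower), a smaller difference than that of B2m. B2m and Stat2 were picked after their values were seen.

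Secreted signals of immunity were lower as well. Of 41 chemokines, interleukins and their receptors, 21 were lower and 0 higher. Cxcl12, which attracts cells that carry Cxcr4, was at 837, 769 and 684 CPM in HFSC and 151 and 191 CPM in ORS (4.46-fold lower, adjusted p = 7.96e-05), and Cxcr4 itself at 12.8, 17.1 and 15.3 against 4.71 and 4.85 CPM. Both the ligand and its receptor were thus lower in each ORS library. Of 19 complement genes, 9 were lower, among them C3, the central component, at 19.8, 12.6 and 21.1 against 2.11 and 2.15 CPM, and Clu, an inhibitor of the terminal complex, 3.41-fold lower. A macrophage and Langerhans cell list of 12 markers summed to 219 to 226 CPM in HFSC and to 242 and 178 CPM in ORS. It had 3 members called lower, the class II genes H2-Aa, H2-Ab1 and Cd74, while the pan-leukocyte gene Ptprc was at 3.7, 1.95 and 2 and 4.9 and 2.44 CPM and Cd207, which defines Langerhans cells, under 1 CPM in all 5 libraries. A T cell list of 9 markers summed to 155 to 182 CPM in HFSC and 62.1 and 65.6 CPM in ORS. Most of that was Thy1, also a fibroblast marker, at 172, 145 and 173 against 51.5 and 57.3 CPM, while Cd3e, Cd3g and Cd3d, which define T cells, were under 1 CPM in all 5 libraries. The part of leukocytes in these results was not tested. Chemokines and interleukins called lower numbered 13 without HFSC replicate 3 and 21 without suprabasal hair bulb replicate 1. H2-Aa was not called without HFSC replicate 1 or 3 or ORS replicate 2 (adjusted p = 0.0593 to 0.0933). H2-Ab1 was not called without ORS replicate 1 (adjusted p = 0.0556). Cd74 was not called without HFSC replicate 1 or 3 or ORS replicate 2 or basal hair bulb replicate 1 or 2 or suprabasal hair bulb replicate 2 (adjusted p = 0.0674 to 0.228) and was not called on log2(TPM + 1) (adjusted p = 0.462).

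Lysosomes had the largest share of lower genes of the groups plotted. Of 45 lysosome and autophagy genes, 38 were lower and 1 higher, with a median of -0.81 on counts and -0.51 on log2(TPM + 1). Ctsl, a cysteine protease of the lysosome, was at 182, 181 and 175 CPM in HFSC and 50.7 and 47.4 CPM in ORS (3.66-fold lower, chr13:64359337-64370890, log2 fold change -1.87, SE 0.13, adjusted p = 3.68e-05). The cathepsins Ctsk, Ctsh and Ctsf were 3.35-fold, 3.11-fold and 3.03-fold lower. Atg16l1, needed to build autophagosomes, was the member called higher, by 1.18-fold. In the hair bulb only 20 of the 38 (52.6%) lay below every HFSC library, a smaller share than the 69.9% over all lower genes, a difference that was not tested. Ctsk was 6.15-fold lower without ORS replicate 1. Atg16l1 was not called without ORS replicate 2 or basal hair bulb replicate 1 or 2 or suprabasal hair bulb replicate 1 (adjusted p = 0.05 to 0.322).

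TFEB and its relatives drive lysosomal genes through an element whose core is TCACGTGA, a sequence that contains the E-box CACGTG and reads the same on both strands. That core was found before 4 of 35 members with a promoter (11.4%) and before 0.907% of all genes. All 4 were lower, and of the 35 members 31 were called. The windows of Ctsd (chr7:142387828-142388077, -), an aspartic protease, and Ctsa (chr2:164833523-164833772, +), which protects lysosomal glycosidases, show it in capitals. Both genes were picked after their values were seen.

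Ctsd: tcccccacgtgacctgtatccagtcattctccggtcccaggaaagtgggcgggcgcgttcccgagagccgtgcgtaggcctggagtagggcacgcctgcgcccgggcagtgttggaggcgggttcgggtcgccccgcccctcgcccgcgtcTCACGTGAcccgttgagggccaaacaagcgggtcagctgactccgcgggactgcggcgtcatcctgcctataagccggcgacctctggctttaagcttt

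Ctsa: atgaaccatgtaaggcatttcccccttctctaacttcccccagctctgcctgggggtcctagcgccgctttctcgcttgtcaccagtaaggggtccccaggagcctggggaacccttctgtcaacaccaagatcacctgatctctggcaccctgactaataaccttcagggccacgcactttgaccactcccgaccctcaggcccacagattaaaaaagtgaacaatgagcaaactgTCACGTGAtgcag

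The core starts 99 bases before the start in Ctsd and 13 bases before it in Ctsa. Ctsd was at 641, 687 and 649 against 264 and 292 CPM (2.37-fold lower) and Ctsa at 163, 148 and 162 against 81.9 and 95.1 CPM (1.78-fold lower), with no overlap of populations for either gene. Of the words of Ctsd, 37.3% occur in other genes.

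**Figure D3:**
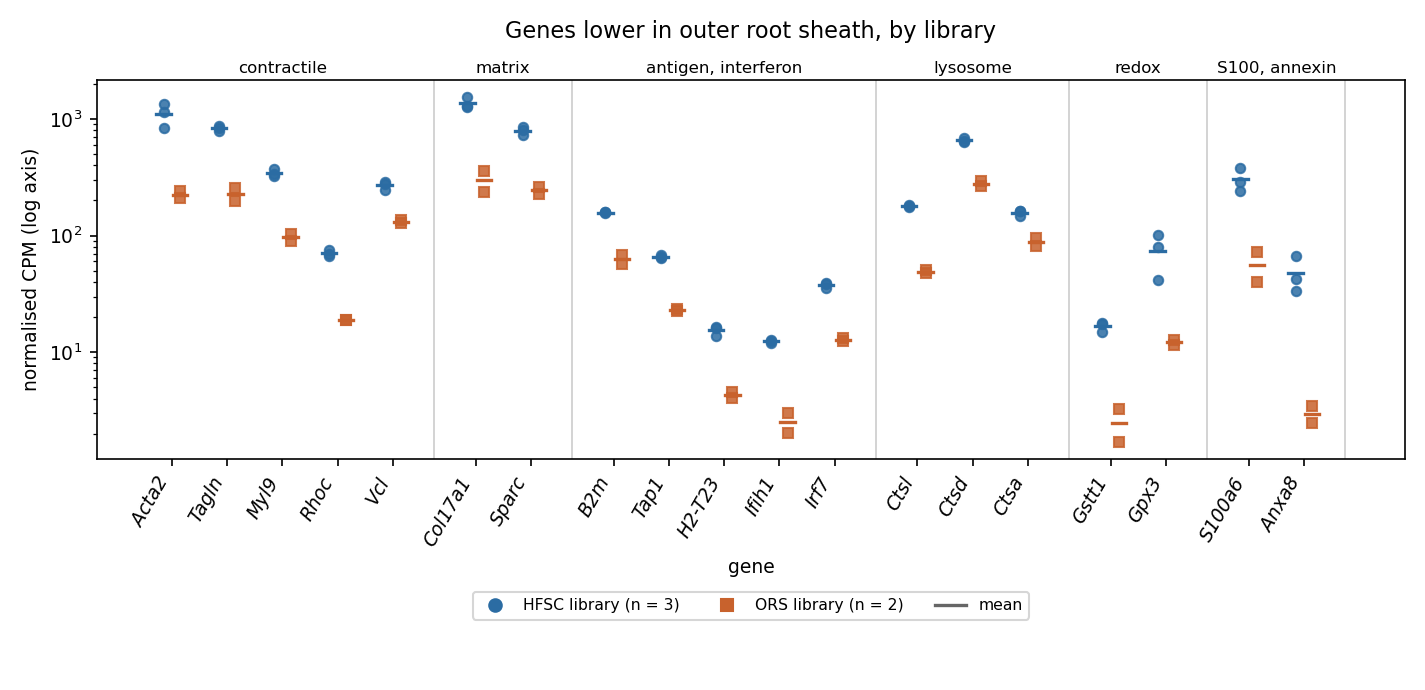
Normalised CPM (log axis) of 19 genes lower in ORS, by library, with circles for 3 HFSC libraries, squares for 2 ORS libraries and bars for means. In each of the 19 genes both ORS libraries lie below all HFSC libraries.

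Cadherins and desmosome genes, which join epithelial cells, were lower too. Of 19 classical cadherins, catenins and nectins, 10 were lower and 1 higher, and of 16 desmosome genes 9 and 1. The cadherins include Cdh3, which encodes the sort marker P-cadherin. Cdh1, which encodes E-cadherin, was at 307, 347 and 335 CPM in HFSC and 118 and 107 CPM in ORS (2.93-fold lower, adjusted p = 3.79e-04). Dsc2, a desmosomal cadherin, was at 26.8, 19.4 and 21.4 against 10.8 and 8.73 CPM. No ORS library reached an HFSC library in either gene. Tight junction genes were near the shares of all genes, with 5 of 27 higher and 7 lower, a median of -0.05 on counts and 0.17 on log2(TPM + 1). Cldn10, a claudin, was 2.83-fold higher. Tight junction members called higher numbered 3 without ORS replicate 1 and 6 without HFSC replicate 2. Tight junction members had 6 higher and 4 lower on log2(TPM + 1). Cldn10 was 1.87-fold higher without ORS replicate 1.

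Enzymes that detoxify oxidants and electrophiles were lower in ORS for 27 of 47 members of the NRF2 and glutathione group and higher for 1 (median -0.62). Gpx3, a secreted glutathione peroxidase, was at 80.6, 41.5 and 101 CPM in HFSC and 12.8 and 11.6 CPM in ORS (6.1-fold lower). The glutathione transferases Gstt1 and Gsta3 were 6.74-fold and 6.15-fold lower and Gstm6 7.65-fold, although 20% of the 25-base words of Gstm6 are shared with other genes. Sod2, the superoxide dismutase of mitochondria, was the exception, at 50, 58.5 and 53.8 against 74.7 and 72.5 CPM (1.36-fold higher). Fatty acid oxidation had 13 of 19 members lower and 0 higher (median -0.52). Slc25a20, which carries acylcarnitine into mitochondria, was at 43.5, 47.4 and 41.5 against 21.5 and 25.4 CPM, Etfdh, which passes the electrons on, was 1.63-fold lower, and Acaa2, the last enzyme of the cycle, 1.62-fold lower. The differences were small, but populations did not overlap for any of the 3. Fatty acid oxidation members had 1 higher and 7 lower on log2(TPM + 1).

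Hypoxia and glycolysis genes were more often lower. Of 36, 17 were lower (47.2%) and 3 higher (8.3%), against 23.9% and 17.8% over all genes. Their median was -0.42, against -0.06. The hexokinases moved in opposite directions: Hk1 was at 25.4, 20.8 and 25.4 CPM in HFSC and 7.78 and 7.64 CPM in ORS, and Hk2 at 15.6, 17.4 and 17.9 against 30.8 and 28.4 CPM. Slc16a1, a lactate transporter, was 3.85-fold lower and Adm, a peptide induced by low oxygen, 5.37-fold lower. Electron transport chain and ATP synthase genes had 22 of 79 lower and 5 higher on counts (median -0.17), which on log2(TPM + 1) became 16 lower and 26 higher (median 0.07), and each median lay below that of all genes on its scale. Fatty acid synthesis genes split, with Scd1, a desaturase, and Fasn, the fatty acid synthase, higher by 2.38-fold and 1.95-fold, and the elongases Elovl4 and Elovl5 lower by 2.98-fold and 1.93-fold. Electron transport genes called higher numbered 2 without ORS replicate 1 and 10 without HFSC replicate 2. Electron transport genes called lower numbered 9 without ORS replicate 2 and 24 without suprabasal hair bulb replicate 1.

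S100 proteins and annexins, calcium-binding proteins of membranes and cytoskeleton abundant in stratified epithelium, had 18 of 22 members lower and 0 higher, with a median of -1.26. Anxa8 was at 33.3, 66.8 and 42.5 CPM in HFSC and 3.48 and 2.45 CPM in ORS, 16.1-fold lower (chr14:34085981-34100571, log2 fold change -4, SE 0.33, adjusted p = 6.98e-05). S100a6 was at 243, 382 and 289.6 against 72.8 and 39.9 CPM and Anxa6 3.95-fold lower. Each HFSC library exceeded each ORS library for all 3 genes. Keratins of epithelial sheaths were lower for 14 of 23 members. Krt6a, a keratin of the companion layer beside the outer root sheath, was at 83, 212 and 127 CPM against 3.53 and 2.36 CPM, and Krt80 was 9.09-fold lower, with 54% of the 25-base words of Krt6a found in other genes. Krt80 was 27.1-fold lower without ORS replicate 1 and 5.35-fold lower without ORS replicate 2.

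Markers of neighbouring epithelium were lower too, in part as the same genes: Krt16, Krt17, Krt6a and Krt75 of the companion layer list and Krt1 and Krt10 of the suprabasal list are keratins of the group above, and Anxa8 is in both the annexin and companion lists. A suprabasal epidermis list of 13 genes summed to 352 to 519 CPM in HFSC and 288 and 252 CPM in ORS, with 8 of the 11 kept called lower. Flg, Lce1a1 and Cnfn, genes of the outermost layers, were under 1 CPM in all 5 libraries. Sbsn, secreted by suprabasal cells, was at 73.3, 132 and 113 against 9.46 and 4.36 CPM and Krt10, a keratin of those cells, at 46.4, 24.4 and 46.7 against 12.7 and 9.1 CPM. A companion layer list of 6 genes summed to 2320.2 to 3205 CPM in HFSC and 756 and 594 CPM in ORS, with 4 of the 5 kept called lower. An infundibulum and isthmus list of 10 genes, for the follicle above the bulge, summed to 1909.7 to 1929 CPM in HFSC and 869.5 and 1071 CPM in ORS, with 5 called lower and 2 higher. The part of suprabasal, companion or upper follicle cells in the S100, annexin and keratin result was not tested. Krt1 was not called without HFSC replicate 1 or 3 or ORS replicate 2 or basal hair bulb replicate 1 or 2 (adjusted p = 0.0559 to 0.103) and was 69.1-fold lower without ORS replicate 1. Cnfn was not called without ORS replicate 1 (adjusted p = 0.0601). Sbsn was 24.3-fold lower without ORS replicate 1.

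Genes of RNA splicing were higher in ORS. Of 32 SR and hnRNP splicing factors, 22 were higher and 1 lower, with a median of 0.45 on counts and 0.65 on log2(TPM + 1), against 17.8% higher over all genes. Hnrnpa0, an RNA-binding protein, was at 294, 267 and 261 CPM in HFSC and 646 and 715 CPM in ORS (2.49-fold higher, chr13:58125879-58128556, log2 fold change 1.31, SE 0.1, adjusted p = 5.47e-05). Srsf2, an SR protein that selects exons, was at 289, 303 and 283 against 602 and 574 CPM (2.02-fold higher, adjusted p = 7.47e-05). For both genes the populations did not overlap and the libraries of each lay close together. Srsf7 and Hnrnpab were 1.71-fold and 1.64-fold higher. Of the 22 higher genes, 12 (54.5%) were also above every HFSC library in all 4 hair bulb libraries.

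**Figure D4:**
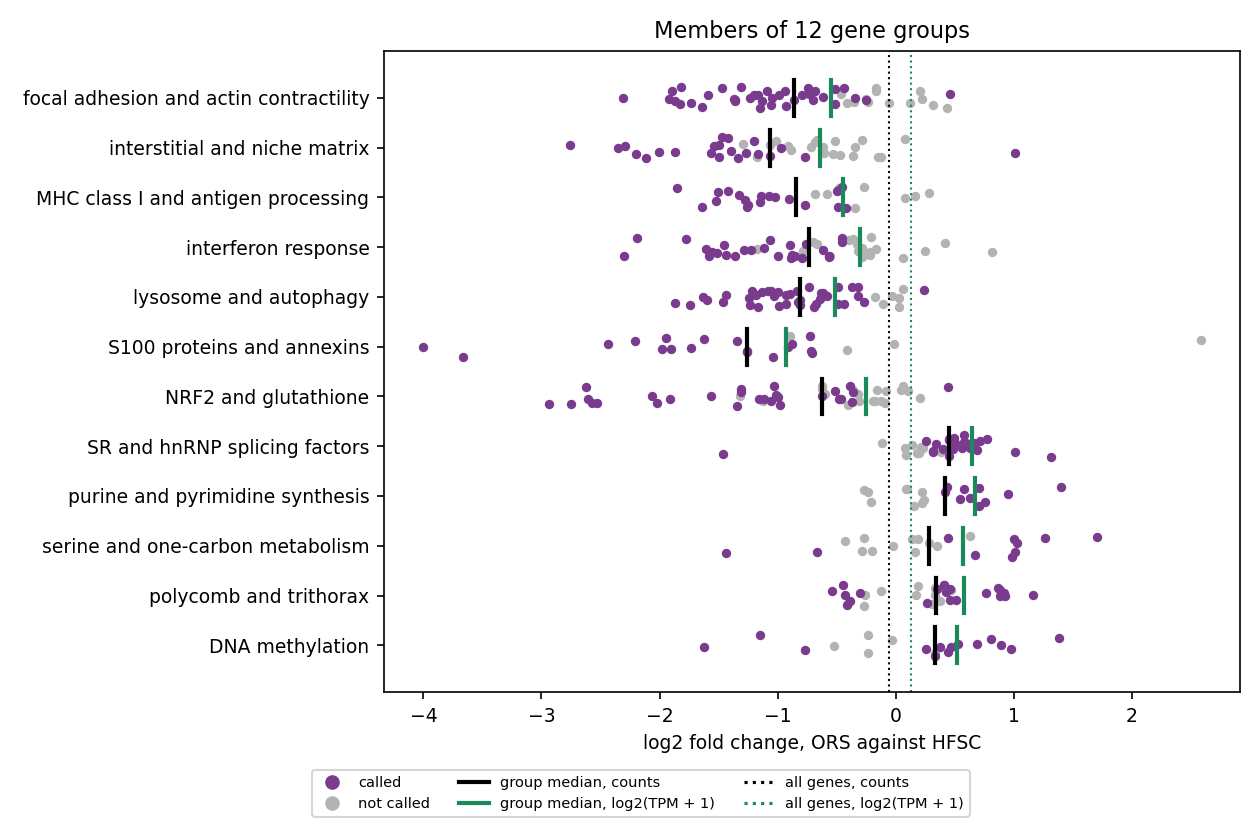
Log2 fold change, ORS against HFSC, of every kept member of 12 groups, purple where called. Solid bars are group medians on counts (black) and on log2(TPM + 1) (green), and dotted lines the medians of all genes, -0.06 and 0.13. The 7 upper groups have medians below both lines, the 5 lower groups above both.

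Enzymes of nucleotide synthesis were higher in ORS. Of 19 purine and pyrimidine enzymes, 10 were higher and 0 lower (median 0.42). Ppat, which commits ribose to purines, was at 22, 31.2 and 27.1 CPM in HFSC and 70.8 and 70.4 CPM in ORS (2.64-fold higher, chr5:76913249-76951578, log2 fold change 1.4, SE 0.13, adjusted p = 9.20e-05). Pfas, a later purine enzyme, was at 49.4, 52.4 and 59.1 against 94.8 and 112 CPM, and Cad, which starts pyrimidine synthesis, at 216, 175 and 211 against 293 and 384 CPM. Every ORS library was above every HFSC library for these genes. Umps, which completes UMP, was 1.63-fold higher. The E-box CACGTG, the site of MYC and related factors, was found before 4 of 16 enzymes with a promoter (25%) and before 6.86% of all genes. Of the 4, 2 were called, and of the 16 enzymes 9 were called.

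Serine and one-carbon metabolism, which feeds carbon units to nucleotide synthesis, was higher for 8 of 21 genes and lower for 2. The mitochondrial folate enzymes Mthfd1l and Mthfd2 were at 9.75, 13.9 and 12.7 against 41.7 and 37.5 CPM (3.27-fold higher, adjusted p = 6.09e-05) and 16, 19.7 and 20.9 against 46.8 and 44 CPM (2.41-fold higher). Psat1, in the path from glycolysis to serine, was 2.01-fold higher, and Aldh1l2, which oxidises formyl-folate in mitochondria, 2.04-fold higher. Mat2a, which makes the methyl donor S-adenosylmethionine, was lower, at 1293, 1177 and 1164 against 452 and 444 CPM (2.7-fold lower). The libraries of the populations did not overlap for any of these 5 genes. Among amino acid transporters and stress response genes, Slc38a1, a glutamine carrier, was at 1.81, 3.15 and 2.33 against 20 and 14.6 CPM and Cebpb, a transcription factor, at 60.1, 56 and 61.3 against 251 and 279 CPM, while Slc3a2, the partner chain of several carriers, was at 2152, 1885 and 1904 against 722 and 1074 CPM. In polyamine metabolism Odc1, its first enzyme, was at 68.2, 109 and 97.9 against 336 and 152 CPM, with ORS replicate 1 the higher, and Smox, which breaks spermine down, was 3.35-fold lower. Reads of Odc1 are uncertain, since 55.7% of its 25-base words occur in other genes. Serine and one-carbon metabolism members had 13 higher and 2 lower on log2(TPM + 1). Odc1 was not called without ORS replicate 1 (adjusted p = 0.0589).

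The machinery of ribosomal and transfer RNA and of protein folding was also higher. RNA polymerase I and III genes were higher for 12 of 32 and lower for 2, cytosolic tRNA synthetases for 9 and 1 of 23, and chaperonin and HSP90 chaperones for 11 and 3 of 24. Polr1b, a catalytic subunit of polymerase I, was at 25.3, 28 and 33.3 CPM in HFSC and 65 and 75.2 CPM in ORS (2.43-fold higher, adjusted p = 1.02e-04). Aimp2, a scaffold of the synthetase complex, was at 14.3, 18 and 16.1 against 33.4 and 32.4 CPM, and Fkbp4, a partner of HSP90, 1.79-fold higher. The prefoldins Pfdn5 and Pfdn1, which pass chains to the chaperonin, were lower, by 1.98-fold and 1.85-fold, with 39.4% of the words of Pfdn5 shared. In the MYC network Mycn, at 11.4, 15.5 and 13.2 against 72.9 and 68.3 CPM, was higher beside Mycl, and Mxd4, an antagonist of MYC, lower, at 176, 155 and 149 against 80.4 and 96.4 CPM. tRNA synthetases called higher numbered 7 without ORS replicate 1 and 18 without HFSC replicate 2. Chaperones called higher numbered 7 without ORS replicate 1 and 16 without HFSC replicate 2. Polymerase I and III genes had 23 higher and 0 lower on log2(TPM + 1). tRNA synthetases had 21 higher and 1 lower on log2(TPM + 1). Chaperones had 20 higher and 2 lower on log2(TPM + 1). Mxd4 was not called on log2(TPM + 1) (adjusted p = 0.0861).

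**Figure D5:**
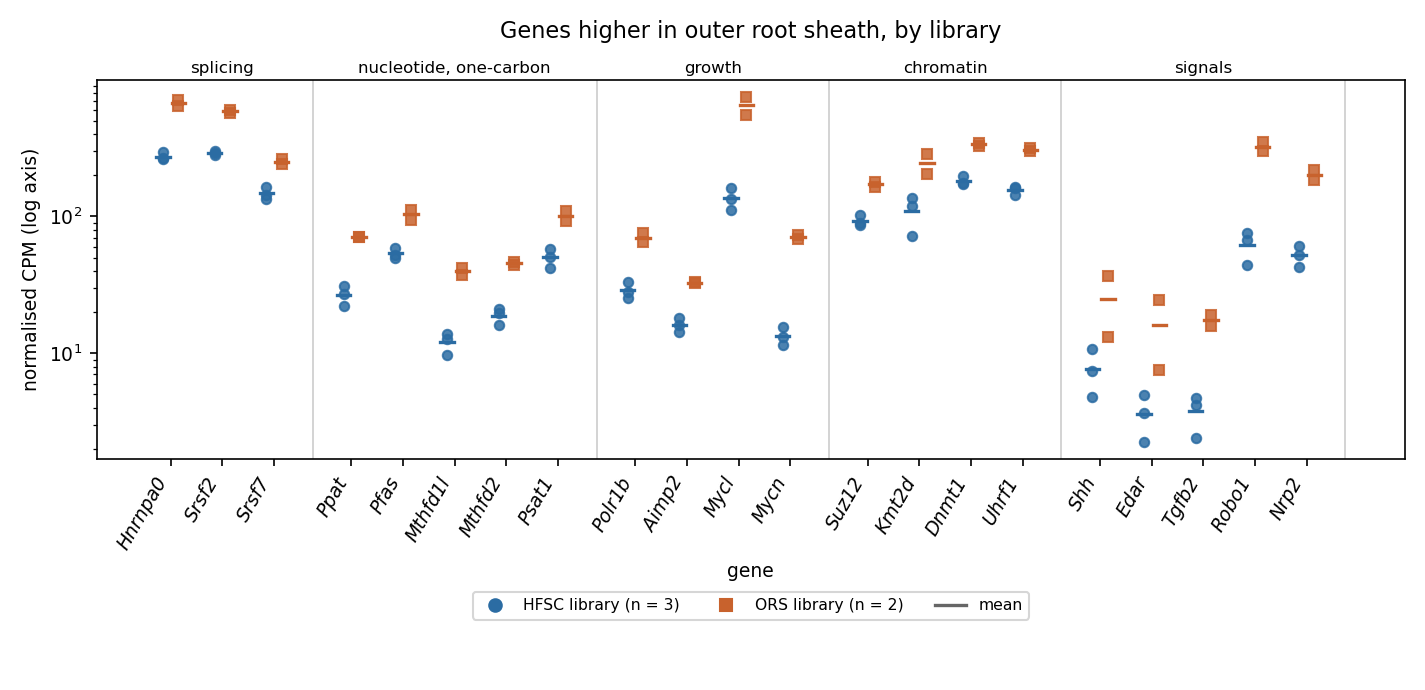
Normalised CPM (log axis) of 21 genes higher in ORS, by library, drawn as in the plot of lower genes. Both ORS libraries lie above all HFSC libraries for each gene, and the 2 ORS libraries stand farthest apart for Shh and Edar.

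Chromatin regulators also moved. Of 32 polycomb and trithorax genes, which write repressive and activating histone methylation, 15 were higher and 6 lower (median 0.34). Suz12, a core subunit of the polycomb complex that methylates histone H3, was at 90.1, 102 and 87 CPM in HFSC and 178 and 165 CPM in ORS (1.85-fold higher, chr11:79993106-80034123, log2 fold change 0.89, SE 0.11, adjusted p = 3.34e-04). The H3 methyltransferases Kmt2d and Kmt2a were at 137, 72 and 119 against 204 and 287 CPM and 120.1, 84.6 and 106 against 166 and 226 CPM. The populations stayed apart in all 3 genes, with the widest spread in Kmt2d. Rnf2 and Pcgf2, subunits of the complex that ubiquitinates H2A, were lower by 1.35-fold and 1.37-fold. Of 19 DNA methylation genes, 11 were higher and 3 lower. Dnmt1, which copies methylation after replication, was at 172, 175 and 198 against 330.1 and 344 CPM (1.85-fold higher, adjusted p = 1.67e-04), and its recruiter Uhrf1 was 1.97-fold higher. Tet1, which oxidises methylcytosine, was at 2.65, 3.85 and 5.05 against 10.4 and 9.75 CPM, and the cytidine deaminase Apobec1 3.08-fold lower. Uhrf1 is uncertain, since 34% of its 25-base words occur in other genes. Polycomb and trithorax members called higher numbered 9 without ORS replicate 2 and 19 without HFSC replicate 1. Polycomb and trithorax members called lower numbered 1 without ORS replicate 1 and 6 without suprabasal hair bulb replicate 1. DNA methylation members called higher numbered 7 without ORS replicate 1 and 12 without HFSC replicate 3. Kmt2d was not called without ORS replicate 2 (adjusted p = 0.0589) and was not called on log2(TPM + 1) (adjusted p = 0.138). Rnf2 was not called without ORS replicate 1 (adjusted p = 0.0507). Pcgf2 was not called without HFSC replicate 1 or 3 or ORS replicate 1 or 2 or basal hair bulb replicate 1 or suprabasal hair bulb replicate 2 (adjusted p = 0.0502 to 0.172) and was not called on log2(TPM + 1) (adjusted p = 0.633).

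In TGF-beta and BMP signalling, ligands, receptors and antagonists changed member by member. Of 18 ligands, 4 were higher (22.2%) and 6 lower (33.3%), against 17.8% and 23.9% over all genes. Tgfb2 was at 2.39, 4.21 and 4.73 CPM in HFSC and 15.8 and 19 CPM in ORS (4.62-fold higher, adjusted p = 3.74e-04), and Bmp7 at 26.7, 34.2 and 30.4 against 59.2 and 62.1 CPM. Inhbb, a subunit of activins, was at 221, 192 and 162 against 33.1 and 35.2 CPM, 5.62-fold lower. Gdf10 and Bmp3, ligands that oppose other BMPs or activins, were 13.1-fold and 3.7-fold lower. Receptors had 4 of 15 higher (26.7%) and 5 lower (33.3%). The activin receptor Acvr2b was at 1.34, 1.64 and 2.14 against 6.27 and 6 CPM, and Acvrl1 and the coreceptor Tgfbr3 were 3.72-fold and 3.15-fold lower. Antagonists had 7 of 15 lower and 2 higher, with Grem1, which traps BMPs, at 3.52, 8.59 and 4.62 against 1.11 and 0.536 CPM and Sostdc1, which blocks BMPs and WNTs, at 12.4, 22.1 and 21 against 5.68 and 1.04 CPM. Fst, which binds activins, was higher by 1.34-fold. Downstream, SMAD and ID effectors had 8 of 20 higher (40%) and 6 lower (30%). On log2(TPM + 1) they had 6 higher and 1 lower. Smad6 and Smad7, the inhibitory SMADs, were higher by 2.02-fold and 1.53-fold, as was Smad3 by 1.87-fold, while Smad1 was 1.41-fold lower. BMP and TGF-beta receptors called lower numbered 4 without HFSC replicate 1 and 8 without suprabasal hair bulb replicate 1. BMP and TGF-beta antagonists called lower numbered 3 without HFSC replicate 3 and 6 without ORS replicate 2. BMP and TGF-beta ligands had 4 higher and 3 lower on log2(TPM + 1). BMP and TGF-beta antagonists had 4 higher and 2 lower on log2(TPM + 1). Gdf10 was 39.7-fold lower without ORS replicate 1 and 7.73-fold lower without ORS replicate 2. Grem1 was 10.3-fold lower without ORS replicate 1. Sostdc1 was not called without HFSC replicate 2 or 3 or ORS replicate 2 (adjusted p = 0.0672 to 0.0751) and was 17.8-fold lower without ORS replicate 1. Fst was not called without ORS replicate 1 or 2 (adjusted p = 0.0594 to 0.0974). Smad7 was not called on log2(TPM + 1) (adjusted p = 0.0735). Smad1 was not called on log2(TPM + 1) (adjusted p = 0.205).

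The hedgehog pathway showed a higher ligand and receptor without a called difference in its transcriptional readout Gli1. Shh, the ligand, was at 4.79, 7.4 and 10.8 CPM in HFSC and 37 and 13.2 CPM in ORS (3.27-fold higher, chr5:28456815-28467256, log2 fold change 1.71, SE 0.41, adjusted p = 0.0106), with ORS replicate 1 well above replicate 2. Ptch1, the receptor and a target of the pathway, was at 294, 240.4 and 327 against 521 and 515 CPM (1.8-fold higher). Gli1 was at 287, 211 and 249.5 against 244 and 259 CPM, with overlapping populations (chr10:127329882-127341974, log2 fold change 0.01, SE 0.13, adjusted p = 0.94). The coreceptors Gas1, Cdon and Boc, which help cells bind the ligand, were all lower, by 2.2-fold, 1.79-fold and 1.48-fold. In all, 4 of 18 pathway genes were higher and 5 lower, shares near those of all genes. In the ectodysplasin branch of the TNF family, which shapes hair placodes, the receptor Edar was at 2.25, 3.68 and 4.94 against 24.5 and 7.54 CPM (4.42-fold higher) and its adaptor Edaradd at 29.2, 32.3 and 28.6 against 74.2 and 87.6 CPM (2.7-fold higher, adjusted p = 3.90e-05). Tnfrsf19, another receptor of the family, was 2.86-fold higher, while Traf1, an adaptor induced by TNF signals, and Relt, a receptor, were 6.16-fold and 2.62-fold lower. Of 27 genes of the family, 6 were higher (22.2%) and 8 lower (29.6%), against 17.8% and 23.9% over all genes. Hedgehog pathway members called higher numbered 2 without ORS replicate 1 and 7 without HFSC replicate 1. Hedgehog pathway members called lower numbered 3 without HFSC replicate 2 and 5 without suprabasal hair bulb replicate 1. Hedgehog pathway members had 9 higher and 2 lower on log2(TPM + 1). Shh was not called without ORS replicate 1 (adjusted p = 0.0924). Cdon was not called without HFSC replicate 2 or 3 or ORS replicate 2 (adjusted p = 0.089 to 0.116) and was not called on log2(TPM + 1) (adjusted p = 0.203). Boc was not called on log2(TPM + 1) (adjusted p = 0.229). Edar was 2.08-fold higher without ORS replicate 1 and 6.77-fold higher without ORS replicate 2. Tnfrsf19 was 1.88-fold higher without ORS replicate 1.

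Neurotrophin genes were more often lower than higher. Of 16 neurotrophins and related receptors, 10 were lower and 0 higher (median -0.86). Ngfr, a receptor of all neurotrophins, was at 208, 183 and 203 CPM in HFSC and 77.3 and 71.6 CPM in ORS (2.66-fold lower, chr11:95568818-95587735, log2 fold change -1.41, SE 0.16, adjusted p = 2.44e-04). Lif, a cytokine, was 4.3-fold lower and Gfra1, which binds the glial factor GDNF, was at 7.18, 8.95 and 7.6 against 2.78 and 0.592 CPM. Guidance genes were called in both directions. Robo1, a receptor for slits, was at 44.3, 67 and 75.2 against 299.6 and 349 CPM (5.22-fold higher, adjusted p = 7.21e-05), while its ligand Slit2 was at 62.5, 47.9 and 57.1 against 15.5 and 29.8 CPM (2.46-fold lower). Among semaphorin genes the receptors Nrp2 and Plxna2 were at 42.5, 52.7 and 60.7 against 219 and 186 CPM and 96.2, 111 and 126 against 339 and 379 CPM, both higher, with 6 higher and 6 lower of 29, near the shares of all genes. Among ephrins and their receptors, 8 of 19 were lower and 3 higher: the receptors Ephb6, Epha4, Ephb1 and Ephb3 were lower by 4.08-fold, 3.15-fold, 2.99-fold and 2.77-fold, and the ligand Efnb2 was at 66.5, 83.1 and 90.7 against 166 and 191 CPM, 2.23-fold higher. Semaphorin, plexin and neuropilin genes called lower numbered 2 without HFSC replicate 3 and 6 without ORS replicate 1. Neurotrophins and their receptors had 1 higher and 5 lower on log2(TPM + 1). Semaphorin, plexin and neuropilin genes had 7 higher and 2 lower on log2(TPM + 1). Gfra1 was 13.3-fold lower without ORS replicate 1 and 2.85-fold lower without ORS replicate 2.

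Growth factor and NOTCH genes were called in part. Feedback genes of RAS and ERK signalling were lower for 10 of 19 and higher for 0, and Dusp6, a phosphatase that switches ERK off and is induced by it, was at 434, 398 and 323 CPM in HFSC and 167 and 207 CPM in ORS (2.05-fold lower). Fgfr2 was the higher member of 19 FGF ligands and receptors, at 139, 152 and 154 against 268 and 253 CPM, and 6 were lower. Early response factors, which tissue dissociation is known to raise, were lower for 13 of 26 and higher for 2: Fos was at 589.7, 685 and 702 against 204 and 246 CPM and Atf3 at 116, 178 and 184 against 45.4 and 57.3 CPM. Fos, Atf3 and Dusp6 were all lower in each ORS library, and the part of cell handling in these values was not tested. Of 11 NOTCH ligands and receptors, Jag1 alone was called, lower by 1.29-fold, and 10 were not. Notch1 was at 383, 274 and 354 against 312 and 404 CPM, with overlapping populations. The group median was -0.23 on counts and 0.05 on log2(TPM + 1), each below that of all genes on its scale. FGF and RAS-ERK feedback members had 2 higher and 6 lower on log2(TPM + 1). FGF ligands and receptors had 2 higher and 3 lower on log2(TPM + 1). AP-1, EGR and early response factors had 3 higher and 8 lower on log2(TPM + 1). Jag1 was not called without HFSC replicate 1 or 2 or 3 or ORS replicate 1 or basal hair bulb replicate 1 or 2 or suprabasal hair bulb replicate 2 (adjusted p = 0.0589 to 0.226) and was not called on log2(TPM + 1) (adjusted p = 0.503).

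Among single genes with at least 10 CPM in the higher population, the largest rises were in Gm2026, Atp5g2, Btg3, Rpgrip1, Glcci1, Adnp, Zbtb16, Slc38a1, Aldh1a1 and C2cd4a, and ran from 6.09-fold in C2cd4a to 13.6-fold in Atp5g2, leaving aside Gm2026, which was at 1.12, 0 and 0 CPM in HFSC and 14.3 and 15.6 CPM in ORS. Atp5g2, a subunit of the ATP synthase ring, was at 6.06, 6.29 and 8.29 CPM in HFSC and 100.1 and 87.5 CPM in ORS, and at 89.3 to 119 CPM in the hair bulb libraries. Adnp, a homeodomain chromatin protein, was at 12.4, 7 and 10.9 against 97.9 and 117 CPM, and at 56.5 to 70.4 CPM in the hair bulb. In 9 of these 10 genes, Zbtb16 being the exception, all 4 hair bulb libraries also exceeded all HFSC libraries, so the HFSC libraries were the lowest. Whether that lies in the cells or in the preparation of HFSC cannot be told apart. For Aldh1a1, ORS replicate 2 at 2.73 CPM lay near HFSC, at 1.64 to 1.81 CPM, and below the hair bulb, at 17.9 to 61.8 CPM. Zbtb16, the transcriptional repressor PLZF, was at 3.52, 2.79 and 2.14 against 18.7 and 35.9 CPM and at 0.113 to 14.5 CPM in the hair bulb. Aldh1a1, a retinaldehyde dehydrogenase, was at 22.2 and 2.73 CPM in ORS replicates 1 and 2, so that replicate 1 sets its mean. Btg3 was 23.3-fold higher without HFSC replicate 1. Aldh1a1 was not called without HFSC replicate 1 or 2 or 3 or ORS replicate 1 (adjusted p = 0.0632 to 0.44) and was 12.6-fold higher without ORS replicate 2 and was not called on log2(TPM + 1) (adjusted p = 0.071). C2cd4a was 3.76-fold higher without ORS replicate 2.

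The largest falls were in Gm7324, Atn1, Krt6a, Gm20425, Mup9, Plekhb1, C330013J21Rik, Anxa8, Sbsn and Scrg1, and ran from 15.3-fold in Scrg1 to 65.7-fold in Atn1, leaving aside Gm7324, which was at 25.1, 33.9 and 30.2 CPM in HFSC and 0.118 and 0 CPM in ORS. Scrg1, a small secreted protein, was at 21.1, 29.1 and 28.7 against 2.11 and 1.34 CPM and Plekhb1, a membrane-associated protein, at 12.1, 30.3 and 20.1 against 1.39 and 0.682 CPM. The Atn1 value belongs to an overlapping gene model that GENCODE M21 names Gm45234, with 97.1% of its 25-base words shared. The shares were 89.5% for Gm7324, 97.4% for Gm20425, 95.6% for Mup9 and 71% for C330013J21Rik. Among the rises they were all of the words for Gm2026, 89.1% for Adnp, 88.1% for Glcci1, 21.9% for C2cd4a and 21.1% for Atp5g2. All these values are uncertain. In 9 of these 10 genes, Gm20425 being the exception, all hair bulb libraries were below all HFSC libraries. Atn1 was 135-fold lower without ORS replicate 2. Mup9 was 11.6-fold lower without HFSC replicate 1 and 37.8-fold lower without ORS replicate 2. Plekhb1 was 30.5-fold lower without ORS replicate 1.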

How the data were processed

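RNA was measured in 9 libraries of 4 sorted populations. Per the submitters' processing notes, reads were aligned to mm10 with Bowtie2 2.2.9 and quantified with RSEM 1.2.30; the annotation and the counting strand are not given in the sources used here, so overlapping and antisense genes cannot be told apart. Each deposited table holds expected counts, which the authors' RSEM estimated, and TPM, which the authors scaled for length and depth. The 3 columns of a deposited table of the whole series that match no sample label were not used.

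Expected counts were rounded and tested with edgeR 4.0.16 (R 4.3.3): TMM, filterByExpr on the 4 populations, 1 fit of all 9 libraries, glmQLFTest for ORS against HFSC, 2-sided, adjusted over 20491 genes at 0.05. The HFSC libraries held 25098237 to 29902799 counts and the ORS libraries 64569201 and 88596741, so low levels are less precise in HFSC. On simulated counts for this comparison (20491 genes), 41% of 2-fold, 73% of 4-fold and 0.0641% of unchanged genes were called. There only a small part of the genes was set higher in ORS, none lower, and filterByExpr was not used. In the data far more genes were called, and in both directions, so these rates may differ there. Of 46517 gene rows, 98.9% had an identifier in GENCODE M21.

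The populations, gene groups and members were chosen with earlier results of these data known. Named from each group were up to 4 called members with the largest change in the direction with more calls and up to 3 in the other, with at least 5 CPM, besides members of signalling groups and cell type markers for their levels, and the 10 largest rises and falls with at least 10 CPM, groups that do not overlap and counts in both populations. Alternatives were DESeq2 1.42.0, limma 3.58.1 on log2(TPM + 1) and log2(TPM + 0.1), other scalings, filters, length and GC offsets, the replicate block, and leaving out each library. Same-numbered HFSC and ORS libraries are not stated to share an animal or a day.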

Additional observations from a re-analysis of the deposited data

How the results depend on the processing

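The count of 3488 genes higher and 4677 lower in ORS stayed within 1.5 times under every alternative except the TPM settings. limma on log2(TPM + 1) gave 5715 higher and 2630 lower, and with a pseudocount of 0.1 it gave 5692 and 2593. Of the 3488 genes, 3311 were called higher on log2(TPM + 1) too, and 2538 of the 4677 lower. Leaving out 1 library at a time gave 2627 to 4161 higher and 3437 to 4704 lower. The replicate block gave 2931 higher and 4093 lower. Deviations of same-numbered HFSC and ORS libraries correlated at -0.105 and -0.019. With 2 ORS libraries these deviations mirror each other, so the values cannot show whether samples were paired. No pairing was used. Offsets for length and GC, chosen after seeing the data, gave 3877 higher and 4644 lower. Median log2 fold changes ran from -0.15 in the shortest sixth of genes to 0.08 in the longest. By GC share they ran from 0.18 in the lowest sixth to -0.2 in the sixth next to the highest and -0.17 in the highest.

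Over all genes, 5 called higher were called lower with length and GC offsets and 2 with length offsets, and 4 called lower were called higher on each TPM setting. Among the genes named, reversals met only those without a call. Des (main log2 value -0.15; -1.02 to 0.41 with 1 library left out) was at 0.17 with the replicate block and at 0.33 and 0.41 without HFSC replicate 3 or ORS replicate 2. Cnn1 (-0.17; lowest -0.36 without ORS replicate 1) was at 0.2 and 0.17 on TPM with pseudocounts of 0.1 and 1, at 0.05 with the replicate block and at 0.14 and 0.01 without HFSC replicate 3 or ORS replicate 2. Gli1 (0.01) was at -0.03 without ORS replicate 2 and at -0.00 without HFSC replicate 2. Notch1 (0.09; highest 0.27 without HFSC replicate 1) was at -0.24 with length offsets, at -0.13 with length and GC offsets and at -0.11 without ORS replicate 2. Ptprc (0.52; highest 0.98 without HFSC replicate 1) was at -0.07 without ORS replicate 1. Myh11 (-0.06; lowest -1.28 without ORS replicate 1) was at 0.03 and 0.07 on TPM with pseudocounts of 0.1 and 1, at 0.03 with no filter, 0.01 in the 5 libraries alone, 0.02 with upper-quartile scaling, and at 0.03 to 0.59 without suprabasal hair bulb replicate 2, HFSC replicate 3 (0.21) or ORS replicate 2. Of 212 genes named, 15 were no longer called on log2(TPM + 1) and 7 with the replicate block. The cause of these changes was not tested. With 2 ORS libraries, a difference that rests on 1 of them cannot be told from its spread, and genes of a few CPM are the least precise in HFSC, which has fewer counts.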

Other observations

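Serine protease inhibitors had 19 of 36 members lower in ORS and 0 higher. Serping1, an inhibitor of complement C1, was at 58.2, 44.6 and 59.5 CPM in HFSC and 11.5 and 7.42 CPM in ORS (5.74-fold lower), and Serpinf1, a secreted factor that restrains vessel growth, was 5.49-fold lower. Serping1 is also a member of the complement group. Tetraspanins, which organise receptors in the membrane, were lower for 10 of 24 and higher for 3, with Tspan18 at 9.36, 15.8 and 18.6 against 93.6 and 82.9 CPM (6.05-fold higher) and Cd151, a partner of laminin-binding integrins, 1.92-fold lower. Of 15 connexins and pannexins, which form gap junctions and channels, 3 were lower and 0 higher, a lower share near that of all genes, with a median of 0.25. Gjb6 and Gja1 were 2.36-fold and 2.12-fold lower. Cholesterol genes were higher for 6 of 24 (25%) and lower for 2 (8.3%), against 17.8% and 23.9% over all genes. Idi1 and Hsd17b7 of the synthesis path were higher by 2.1-fold and 2.08-fold, while Insig2, which holds the path's activator back, was 3.52-fold lower. Tetraspanins called lower numbered 6 without HFSC replicate 3 and 11 without suprabasal hair bulb replicate 1. Cholesterol genes called higher numbered 1 without ORS replicate 1 and 12 without ORS replicate 2. Cholesterol genes had 10 higher and 1 lower on log2(TPM + 1). Idi1 was not called without ORS replicate 1 (adjusted p = 0.116).

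Transcription factor families changed member by member. Of 32 HOX genes, 8 were higher (25%) and 3 lower (9.4%), against 17.8% and 23.9% over all genes. Their median was -0.19 on counts. Without ORS replicate 1 the HOX counts were 3 higher and 6 lower, and on log2(TPM + 1) 10 higher and 0 lower (median 0.07). Hoxb8 was at 21.7, 18.8 and 22.9 CPM in HFSC and 58.7 and 40.6 CPM in ORS (2.34-fold higher), and Hoxa9 was 2.16-fold lower. Of 16 SOX factors, Sox21 was at 7.87, 9.79 and 8.29 against 39.5 and 22.1 CPM (3.56-fold higher) and Sox5 2.94-fold higher, against the fall of Sox9. Klf5, a factor of proliferating epithelium, was 3.21-fold higher. Among nuclear receptors, 14 of 35 were lower (40%) and 6 higher (17.1%), against 23.9% and 17.8% over all genes. Nr4a1, an early response receptor, was at 392, 368 and 416 against 165 and 173 CPM (2.32-fold lower, adjusted p = 0.021 in edgeR's quasi-likelihood test with Benjamini-Hochberg adjustment). It is among 3 members that this group shares with the early response factors. In retinoid metabolism Lrat, which stores retinol as esters, was at 5.4, 14.8 and 11.3 against 2.64 and 1.22 CPM and the retinaldehyde dehydrogenase Aldh1a2 was 3.49-fold lower. In the IGF axis the ligand Igf2 was 2.64-fold higher and the binding proteins Igfbp6 and Igfbp4 3.33-fold and 2.51-fold lower. Nuclear receptors called lower numbered 5 without HFSC replicate 1 and 12 without suprabasal hair bulb replicate 1. Nuclear receptors had 6 higher and 2 lower on log2(TPM + 1). Hoxa9 was not called without HFSC replicate 1 or 2 or ORS replicate 2 (adjusted p = 0.0503 to 0.0628) and was not called on log2(TPM + 1) (adjusted p = 0.0691). Nr4a1 was not called without HFSC replicate 1 or 2 or 3 or ORS replicate 1 or 2 (adjusted p = 0.0526 to 0.0842) and was not called on log2(TPM + 1) (adjusted p = 0.115). Lrat was 8.57-fold lower without ORS replicate 1.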
